A study of Mus musculus with 24 samples.

Results

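The secreted Wnt inhibitors of the hair follicle dermal papilla (DP) are described here as 9 genes, taken by symbol from the gene tables: Wif1, Sfrp1, Sfrp2, Frzb, Sfrp4, Sostdc1, Dkk1, Dkk2 and Dkk3. They are 9 of the 25755 genes listed. RNA was sequenced from DP cells of 3 control and 3 double mutant (dM1/2) mice at each of 4 ages, 24 libraries in all, to ask what Hdac1 and Hdac2 do in the DP over the hair cycle. P20 is the telogen (rest) that ends the first hair cycle, P24 is early anagen (growth) and P28 mid-anagen of the second, and P60 is the telogen that follows. All mice carried Corin-Cre, a Cre recombinase that acts in the DP after birth, with a ROSA26 EYFP reporter by which the cells were sorted. In dM1/2 both alleles of Hdac1 and of Hdac2 were floxed. Controls carried 1 or more floxed alleles of these genes too, in some mice with a floxed gene on both chromosomes, but the labels do not say which genotype each control library has. Cells were sorted from individual mice, and some DP cells are known to escape Cre.

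Wnt ligands bind a Frizzled receptor together with the co-receptors Lrp5 or Lrp6, and this keeps beta-catenin from being degraded. Cells check this signal with secreted proteins of 2 kinds. Wif1 and the secreted Frizzled-related proteins Sfrp1, Sfrp2, Frzb and Sfrp4 bind Wnt ligands outside the cell. Dkk1, Dkk2 and Sostdc1 bind the co-receptors instead, and Sostdc1 also binds BMP ligands. Dkk3 is related in sequence to the other Dickkopf proteins, but its part in Wnt signalling is unsettled. In hair follicles Wnt activity in the DP and in the epithelium above it goes with hair growth, and Dkk1 given in excess is known to stop it.

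The promoters of Dkk1, Sfrp2, Frzb, Wif1 and Dkk2 are shown, as none was at hand for the other members, Sostdc1, Sfrp1, Sfrp4 and Dkk3. The members shown include 2 of those lower in dM1/2 at P28 and the most abundant member in anagen. The sequences are those of RefSeq (GRCm38.p6), 5′ to 3′ on the strand of the gene, from 250 bases before the start of transcription to 50 bases after it. A promoter was at hand for 5 members. The gene spans given further below come from another annotation (GENCODE), by which Frzb, Dkk1 and Wif1 begin before the RefSeq start. Part of these windows thus lies inside the gene by that annotation, and distances to the start refer to RefSeq only. Capitals mark matches to 4 motifs searched on both strands, which are the motif CTTTGAT of TCF and LEF factors, the TATA box motif TATAAA, the GC box motif GGGCGG and the E box motif CACGTG.
Dkk1: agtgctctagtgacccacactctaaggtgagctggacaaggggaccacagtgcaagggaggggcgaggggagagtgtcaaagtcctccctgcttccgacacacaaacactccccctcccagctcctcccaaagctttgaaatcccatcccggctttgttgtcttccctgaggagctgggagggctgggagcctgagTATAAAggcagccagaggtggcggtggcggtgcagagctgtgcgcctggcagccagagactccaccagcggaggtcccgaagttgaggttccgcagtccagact
Sfrp2: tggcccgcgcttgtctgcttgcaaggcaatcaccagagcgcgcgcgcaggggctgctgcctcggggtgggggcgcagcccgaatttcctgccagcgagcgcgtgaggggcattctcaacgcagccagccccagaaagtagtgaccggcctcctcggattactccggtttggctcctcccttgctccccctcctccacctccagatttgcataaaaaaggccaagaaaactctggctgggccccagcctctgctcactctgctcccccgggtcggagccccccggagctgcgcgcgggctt
Frzb: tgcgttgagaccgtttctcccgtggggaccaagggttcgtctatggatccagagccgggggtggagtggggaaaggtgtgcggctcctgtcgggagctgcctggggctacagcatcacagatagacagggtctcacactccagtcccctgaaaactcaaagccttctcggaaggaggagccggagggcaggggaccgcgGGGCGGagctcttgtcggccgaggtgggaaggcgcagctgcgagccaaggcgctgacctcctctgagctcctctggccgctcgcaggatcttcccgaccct
Wif1: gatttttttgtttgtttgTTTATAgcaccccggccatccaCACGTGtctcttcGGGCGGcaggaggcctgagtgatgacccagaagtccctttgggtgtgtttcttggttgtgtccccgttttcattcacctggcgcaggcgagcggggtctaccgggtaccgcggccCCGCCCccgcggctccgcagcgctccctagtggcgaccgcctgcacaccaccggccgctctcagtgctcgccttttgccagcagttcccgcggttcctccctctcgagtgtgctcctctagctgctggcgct
Dkk2: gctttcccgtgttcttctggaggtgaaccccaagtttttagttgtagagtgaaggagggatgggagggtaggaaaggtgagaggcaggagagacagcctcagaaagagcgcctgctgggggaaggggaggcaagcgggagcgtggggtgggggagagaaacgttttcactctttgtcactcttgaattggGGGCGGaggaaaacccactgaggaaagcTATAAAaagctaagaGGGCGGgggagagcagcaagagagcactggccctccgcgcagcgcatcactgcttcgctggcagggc
Dkk1 lies on chromosome 19 (chr19:30549447-30549746, minus strand), Sfrp2 on chromosome 3 (chr3:83766071-83766370, plus strand), Frzb on chromosome 2 (chr2:80447347-80447646, minus strand), Wif1 on chromosome 10 (chr10:121033754-121034053, plus strand) and Dkk2 on chromosome 3 (chr3:132085042-132085341, plus strand). The TATA box motif began 54 bases before the start in Dkk1 and 32 bases before it in Dkk2. In Wif1 it was read on the opposite strand, 232 bases before the start, far from where a TATA box sits. GC box motifs were found in Frzb, Dkk2 and Wif1, and the E box motif in Wif1. No motif searched was found in the Sfrp2 window, and the TCF and LEF motif was in none of the 5 windows. Of 32851 promoters of the same length, 3.73% held the TCF and LEF motif, 13.6% the TATA box motif, 35.7% the GC box motif and 7.15% the E box motif. The windows were GC-rich, from 57.7% in Dkk2 to 66.0% in Sfrp2, against a median of 52.7% over all promoters.

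Values are normalized reads, which are read counts divided by a size factor for each library. Libraries held 11635062 to 13369732 reads on genes at P20, 35469841 to 49331751 at P24, 37171260 to 48331795 at P28 and 8171944 to 9724000 at P60. Xist had 8113 to 26333 normalized reads at P20 and P60 and at most 3.91 at P24 and P28, while Ddx3y showed the opposite pattern, so telogen libraries came from females and anagen libraries from males. Hair cycle stage, sex and depth therefore cannot be told apart between anagen and telogen. The dM1/2 and control libraries of an age share sex and overlap in depth, but a shared age need not be a shared hair cycle stage. The paper reports a shorter anagen in the double mutant. Whether the genotypes differed in stage at an age was not tested here, so a difference between them at an age may include one of stage. At P20 Hdac1 had 375, 511 and 505 normalized reads in controls and 216, 369.6 and 270.03 in dM1/2, all below the controls (log2 fold change -0.72, limma adjusted p = 0.122). Hdac1 had 675, 668 and 668 normalized reads in P24 controls and 209, 188 and 116 in P24 dM1/2. At P28 it had 214, 529 and 105 in the libraries labelled control and 190.2, 149 and 126 in dM1/2, so the library labelled P28 control 3 was below every dM1/2 library. The P28 difference between genotypes is therefore given with and without that library for each member. At P60 Hdac1 had 506, 359.9 and 376 in controls and 371, 347 and 318 in dM1/2, which overlapped (log2 fold change -0.25, limma adjusted p = 0.986), so its reads did not separate the genotypes at that age. Hdac2 was not called at any age, and its reads, counted over the whole gene, were 925 to 1069 in P24 controls and 1157 to 1282 in P24 dM1/2. All 18 DP markers checked had reads in every group, Corin among them, and their summed level was between 44349 and 387339 normalized reads per library. The summed level of 15 keratinocyte markers was at most 1003, that of 8 endothelial markers at most 6215.5, that of 8 immune markers at most 1395 and that of 10 markers of other fibroblasts between 19207 and 246111.

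In the sorted control libraries the members differed widely in level and in the stage at which they were high. On the scale of normalized reads per kb of exon, which allows genes to be compared, Wif1 was the most abundant member at P24 with 20464 ± 213 (SD, n = 3) and ranked 15 among the 14213 genes ranked. It was followed by Sostdc1 with 11064 ± 3758 (SD, n = 3, rank 25). At P28 Wif1 stood at 26442 ± 16745, Sostdc1 at 13915 ± 5169 and Sfrp1 at 12499 ± 4290 (SD, n = 3 each), with ranks of 12, 17 and 23. Telogen had another order. Wif1 led at P20 with 1986 ± 489, before Dkk2 with 1584 ± 469.7, and Dkk2 led at P60 with 2947 ± 564, before Wif1 with 918 ± 440.2 (SD, n = 3 each). The least abundant member at every age was Dkk1, with a mean of at most 3.73 normalized reads per kb in controls.

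Over the 4 ages of the controls 7 of the 8 members tested varied (limma's F test, adjusted p under 0.05), where 49.0% of all genes tested did. Of these, Wif1, Sfrp1, Frzb and Sostdc1 were higher in every anagen control library than in every telogen one, as were 8.45% of all genes tested. Dkk2 was the reverse, lower in every anagen control than in every telogen control, as were 7.05% of genes. Dkk3 had its lowest mean at P24, with 1052 ± 221 normalized reads (SD, n = 3), where 1 P60 control was lower than 2 of the P24 controls. The adjusted p of limma's F test was 8.54e-06 for Frzb, 1.14e-05 for Sostdc1, 1.23e-05 for Sfrp1, 3.14e-05 for Dkk2, 3.29e-05 for Wif1, 0.00103 for Dkk3 and 0.0172 for Sfrp2. Sfrp4 did not pass (limma adjusted p = 0.151), and Dkk1 was too low to be tested. Without P28 control 1 the number of members that varied was 6, and 5614 of 14084 genes varied. In controls the summed level of 10 markers of other fibroblasts was 103304 to 181043 at P20 and 122833 to 149963 at P60. It was 24373 to 70193 at P24 and 28407 to 124544 at P28. Whether cell makeup had a part in the anagen and telogen levels of the members was not tested. With bulk RNA, fewer cells of a type and less RNA per cell cannot be told apart.

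**Figure D1:**
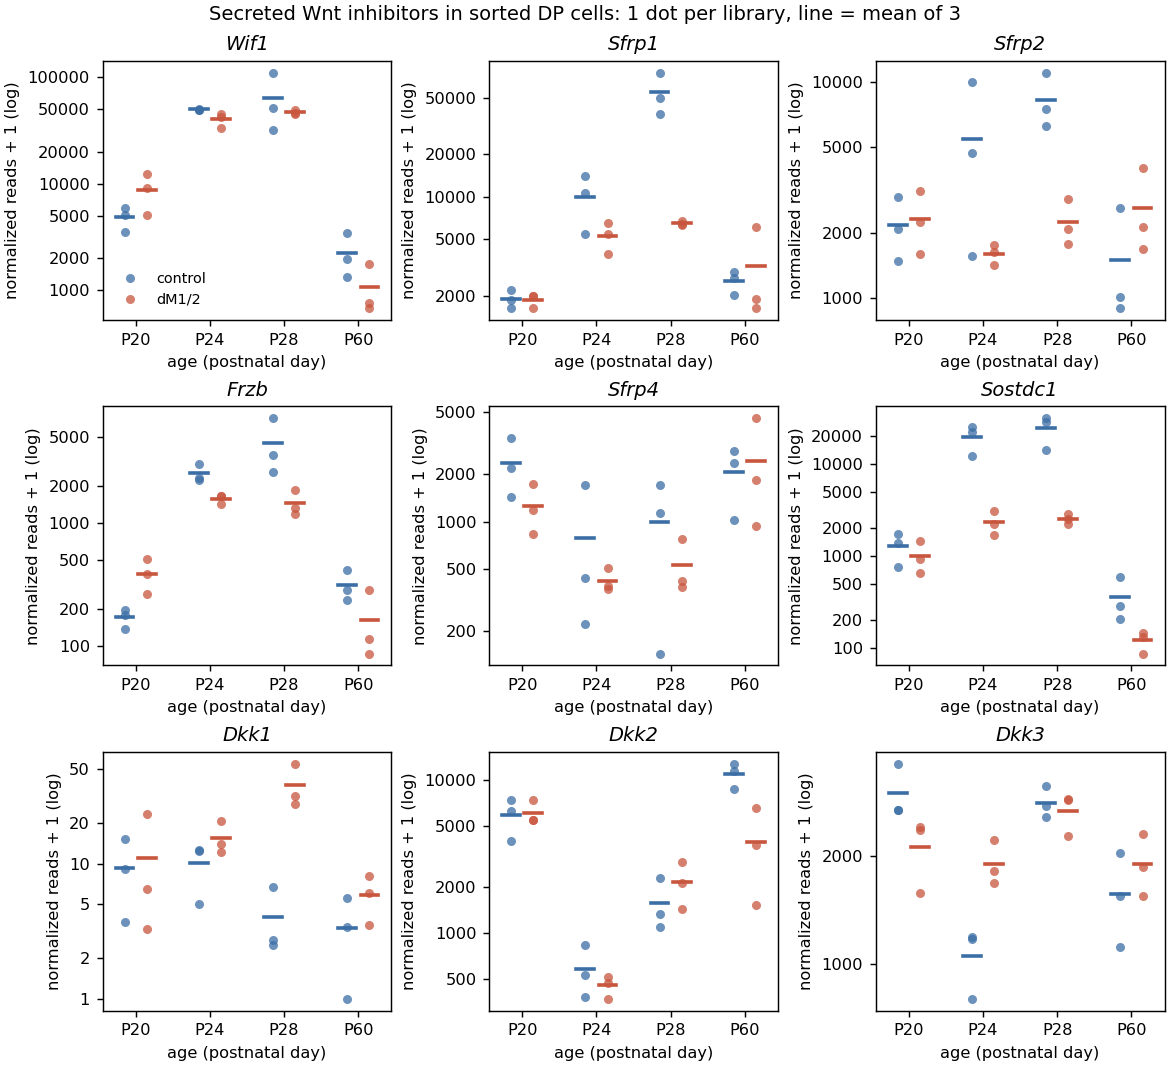
Normalized reads plus 1 (log axis) of the 9 secreted Wnt inhibitors against age, with 1 dot for each library (blue control, red dM1/2) and a line at the mean of 3. Sostdc1 at P24 and P28, and Sfrp1 and Sfrp2 at P28, show red dots below all blue dots, while Dkk1 at P28 shows red dots above them.

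The members were compared between dM1/2 and control at each age with limma, on log2(normalized reads + 1), in genes that averaged 10 normalized reads or more over the libraries compared, and p-values were adjusted by Benjamini-Hochberg over all genes tested. A gene was called at an adjusted p under 0.05, and fold changes refer to this log2 scale, which understates the change of low genes. At P28 5 of the 9 members were called, where 35.5% of all genes were: Sostdc1, Sfrp1, Sfrp2 and Frzb were lower in dM1/2 (15.6% of all genes were called lower) and Dkk1 was higher (20.0% were called higher). Dkk1 passed the filter on low values only through the dM1/2 libraries, so that its call supports nothing here and 4 called of the other 8 members is the count to read. Without the library labelled P28 control 3 the number called was 6, with Sfrp4 added, where 40.9% of all genes were called. At P24 3 of the 9 were called against 26.6% of all genes: Sostdc1 and Frzb were lower (11.8% of genes) and Dkk3 was higher (14.8% of genes). Dkk1, not called at P24, passed the filter there only through the dM1/2 libraries too, so 3 of the other 8 members is the count to read. For so few members this was not far from the share of all genes. No member was called at P20 or P60 with limma, where 0.433% and 0.0% of all genes were called. At an unadjusted p under 0.05, 4 of the 8 members tested passed at P20, where 19.8% of all genes did, and 4 of 8 at P60, where 3.74% did. Without P20 control 1 limma called Frzb and Sfrp4 at P20, where it called 1530 of 13831 genes. DESeq2 called 2 members at P20, where it called 668 of 13845 genes, and none at P60, where it called 26 of 14039. With edgeR no member was called at either age. The median log2 fold change of the members tested was 0.03, -0.40, -0.39 and -0.51 at P20, P24, P28 and P60, and that of all genes tested was -0.01, -0.01, 0.0038 and 0.02.

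**Figure D2:**
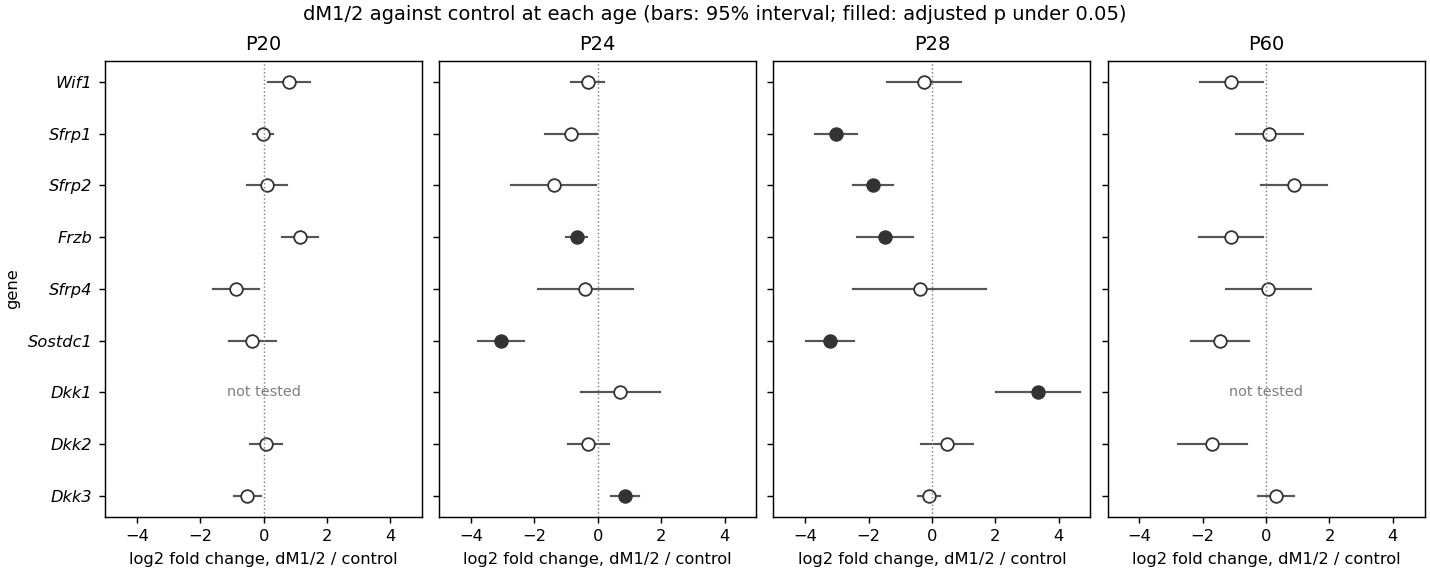
Log2 fold change of dM1/2 over control for each member at P20, P24, P28 and P60, with 95% intervals, filled where the adjusted p of limma was under 0.05. Sostdc1 lies near -3 at both P24 and P28, Sfrp1 lies at -0.84 at P24 and -3.02 at P28, and Dkk1 lies at 3.33 at P28.

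Sostdc1, the inhibitor of Lrp co-receptors and of BMP ligands, had the most negative log2 fold change of the members at both anagen ages. P24 controls had 24887, 22081 and 12148 normalized reads and P24 dM1/2 libraries 1699, 3079 and 2229.97. P28 controls had 28784.5, 14252 and 31311, and P28 dM1/2 libraries 2231, 2865 and 2501. The lowest control of either age was far above the highest dM1/2 library. The log2 fold change was -3.05 at P24 (standard error 0.31, limma adjusted p = 0.00143), an 8.30-fold difference (95% interval 4.99 to 13.8). At P28 it was -3.22 (standard error 0.31, limma adjusted p = 0.000718), a 9.29-fold difference (95% interval 5.56 to 15.5), and without the library labelled P28 control 3 it was -3.01 (limma adjusted p = 0.00027). Both calls held under each of the 14 alternatives. In telogen the gene was far lower in both genotypes, with 760.2 to 1741 normalized reads in P20 controls and 653 to 1435 in P20 dM1/2, which overlapped. At P60 controls had 592, 284 and 203 and dM1/2 libraries 85.8, 146 and 132, so that the groups did not overlap, but the log2 fold change of -1.45 was not called (limma adjusted p = 0.986). Sostdc1 lies on chromosome 12 (36314139 to 36318452, GRCm38).

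Sfrp1, a Frizzled-related protein that binds Wnt ligands, was called at P28 only, among the 4 ages. P28 controls had 50271, 38464 and 75205 normalized reads, and P28 dM1/2 libraries 6743, 6328 and 6397. The dM1/2 libraries lay close to each other and far below the controls. Its log2 fold change was -3.02 (standard error 0.28, limma adjusted p = 0.000636), an 8.11-fold difference (95% interval 5.13 to 12.8), and the call held under all 14 alternatives, with a log2 fold change of -2.76 without the library labelled P28 control 3. At P24 controls had 10684.5, 13910.1 and 5418 and dM1/2 libraries 3918, 6474 and 5484. These groups overlapped through P24 control 3, and the log2 fold change of -0.84 was not called (limma adjusted p = 0.117), whereas without that library it was -1.23 (limma adjusted p = 0.00857) and DESeq2 called the gene on all libraries (adjusted p = 0.0233). Telogen levels were between 1628 and 2208 normalized reads at P20 in both genotypes and between 1643 and 6157 at P60, where dM1/2 replicate 1 was the highest. The log2 fold change was -0.02 at P20 (95% interval -0.34 to 0.30) and 0.09 at P60 (95% interval -0.96 to 1.15). Sfrp1 lies on chromosome 8 (23411502 to 23449632, GRCm38).

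Sfrp2, the closest relative of Sfrp1 among the members, also fell at P28. P28 controls had 11076.5, 6257 and 7493 normalized reads and P28 dM1/2 libraries 2084, 2879.6 and 1772, with no overlap. With limma this was -1.87 on the log2 scale (standard error 0.27, limma adjusted p = 0.00252), a 3.65-fold difference (95% interval 2.36 to 5.66). It was -1.92 without the library labelled P28 control 3, and the call held under all 14 alternatives. The P24 controls were widely spread at 4672, 10081 and 1561, while P24 dM1/2 libraries had 1628, 1748 and 1415. P24 control 3 lay within the dM1/2 range. The log2 fold change of -1.40 at P24 was not called (limma adjusted p = 0.116) and was -2.11 without P24 control 3 (limma adjusted p = 0.00245), and DESeq2 called it on all libraries (adjusted p = 0.00215). At P20 and P60 the groups overlapped, with log2 fold changes of 0.11 and 0.87. An antisense gene, Gm26771, overlaps Sfrp2 on chromosome 3 (83766321 to 83774316, GRCm38) and was not listed in the tables, and the strand setting of the counting is not given in the sources used here, so reads of both could be counted as Sfrp2.

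Frzb, the Frizzled-related protein also named Sfrp3, was lower in dM1/2 at both anagen ages. P24 controls had 2238, 2990.3 and 2321 normalized reads and P24 dM1/2 libraries 1644, 1652 and 1418. P28 controls had 3574, 2576.5 and 7049 and P28 dM1/2 libraries 1182.5, 1320.3 and 1858. Neither age showed overlap. Frzb had a log2 fold change of -0.67 at P24 (standard error 0.15, limma adjusted p = 0.0145) and -1.49 at P28 (standard error 0.37, limma adjusted p = 0.0204). Both calls were close to the threshold. At P24 the adjusted p was 0.0505 without control 2, 0.0505 without dM1/2 replicate 3 and 0.207 when all 24 libraries were fitted together. At P28 it was 0.0522 without control 1, 0.0768 without dM1/2 replicate 1 and 0.0769 without dM1/2 replicate 2, and 0.00744 without the library labelled P28 control 3, where the log2 fold change was -1.09. In telogen the gene was low and pointed in opposite directions at P20 and P60. P20 controls had 196, 135 and 178 normalized reads and P20 dM1/2 libraries 382, 263 and 510.5, all above the controls. P60 controls had 235, 284 and 413 and dM1/2 libraries 85.8, 113 and 282, with 1 dM1/2 library inside the control range. Neither the log2 fold change of 1.14 at P20 (limma adjusted p = 0.0720) nor that of -1.10 at P60 (limma adjusted p = 0.986) was called, although the first was called with DESeq2 (adjusted p = 0.00215) and without P20 control 1 (limma adjusted p = 0.0283). The difference of the P60 and P20 effects, a comparison added after these values had been seen, was -2.25 on the log2 scale (95% interval -3.44 to -1.05) and was not called (limma adjusted p = 0.215), except without P60 dM1/2 replicate 3 (-2.75, limma adjusted p = 0.0305). Frzb lies on chromosome 2 (80411970 to 80447625, GRCm38).

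Wif1, which binds Wnt ligands through a WIF domain, had the highest level per kb of the members in both genotypes in anagen and was not called at any age. P24 controls had 49376.5, 50264 and 49359.8 normalized reads and dM1/2 libraries 33561, 42552 and 44758, all below the controls. P28 controls had 51282.5, 31546 and 109697 and dM1/2 libraries 45694, 49495 and 45177, inside the control range. Wif1 had a log2 fold change of -0.31 at P24 (95% interval -0.83 to 0.21) and -0.27 at P28 (95% interval -1.43 to 0.90). The sign at P28 rested on the library labelled P28 control 3, without which the log2 fold change was 0.22 (limma adjusted p = 0.609). At P20 controls had 5841, 3517 and 5099.5 and dM1/2 libraries 12224, 5057 and 9014, a log2 fold change of 0.80 (limma adjusted p = 0.189) that DESeq2 called (adjusted p = 0.0257). At P60 controls had 1324, 1954 and 3408 and dM1/2 libraries 674, 754 and 1763, a log2 fold change of -1.10 (limma adjusted p = 0.986). The difference of the P60 and P20 effects was -1.90 (95% interval -3.20 to -0.61) and was not called (limma adjusted p = 0.272). Wif1 lies on chromosome 10 (121033960 to 121100650, GRCm38).

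Sfrp4, the last of the Frizzled-related members, was spread widely among the anagen controls. P24 controls had 1709, 439 and 221 normalized reads and P24 dM1/2 libraries 503, 386 and 372. P28 controls had 1129, 1718 and 144 and P28 dM1/2 libraries 420.04, 774 and 381. At both ages the controls spanned the dM1/2 range. Sfrp4 had a log2 fold change of -0.40 at P24 (95% interval -1.90 to 1.10) and -0.39 at P28 (95% interval -2.48 to 1.70). Single libraries decided these values. Without the library labelled P28 control 3 the gene was called at P28 (log2 fold change -1.48, limma adjusted p = 0.00849), while without P28 control 1 or control 2 the log2 fold change was 0.0022 and 0.30, and without P24 control 1 it was 0.42. At P20 controls had 1433, 3401 and 2206 and dM1/2 libraries 1182, 1737 and 830.4, a log2 fold change of -0.88 that was called only without P20 control 1 (adjusted p = 0.182 with it and 0.0371 without it, limma), among the libraries left out. At P60 controls had 2796, 1018 and 2368 and dM1/2 libraries 4549, 1835 and 944. Sfrp4 lies on chromosome 13 (19623104 to 19632994, GRCm38).

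Dkk1, the Dickkopf protein that removes Lrp co-receptors from Wnt signalling, was close to the limit of detection in controls at every age. P28 controls had 1.74, 5.76 and 1.52 normalized reads, from 4, 9 and 4 reads, and P28 dM1/2 libraries had 26.4, 54.0 and 30.5, from 62, 126 and 76 reads. The lowest dM1/2 library was above the highest control. On the log2(normalized reads + 1) scale the difference was 3.33, given as a description since the gene was tested only through its dM1/2 level. Without the library labelled P28 control 3 it was 3.07. Even so, the dM1/2 mean of 15.2 ± 6.13 normalized reads per kb at P28 (SD, n = 3) ranked 11720 among 14213 genes. At P24 controls had 11.6, 4.02 and 11.5 normalized reads and dM1/2 libraries 19.6, 12.9 and 11.2, and the log2 fold change of 0.71 was not called (limma adjusted p = 0.363). With a control mean of 9.05, the gene passed the filter at P24 only through the dM1/2 libraries, so that this test supports nothing. At P20 and P60 the gene was below the filter and libraries held 0 to 10 reads. P60 control 1 had no read, which allows up to 3 reads for counting error alone. Dkk1 lies on chromosome 19 (30545863 to 30549665, GRCm38).

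Dkk2, a Dickkopf protein that binds the same co-receptors, was the member most abundant in controls at P60 and was not called between genotypes at any age. P60 controls had 8637.5, 11375.5 and 12738 normalized reads and P60 dM1/2 libraries 1509.7, 3777 and 6507. Every dM1/2 library was below every control, but the spread between dM1/2 libraries was wide. The log2 fold change was -1.69 (95% interval -2.77 to -0.61, limma adjusted p = 0.986), and the lowest adjusted p of the 14 alternatives was 0.114. At P20 controls had 7400.25, 3977 and 6232 and dM1/2 libraries 5444, 5451 and 7337, a log2 fold change of 0.08. P24 levels were 383, 834 and 528 in controls and 518, 471 and 369.6 in dM1/2. P28 levels were 1330.1, 2293 and 1099 in controls and 1429, 2910.5 and 2112 in dM1/2. The groups overlapped at all ages but P60, and the P28 log2 fold change was 0.46, or 0.24 without the library labelled P28 control 3. Dkk2 lies on chromosome 3 (132085292 to 132180304, GRCm38).

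Dkk3, the diverged Dickkopf protein, was the only member called higher in dM1/2 at P24. P24 controls had 1185, 1174 and 797 normalized reads and P24 dM1/2 libraries 1813, 1679.9 and 2206, without overlap. Its log2 fold change was 0.87 (standard error 0.19, limma adjusted p = 0.0144), a 1.82-fold difference (95% interval 1.35 to 2.47), and the call was lost without P24 dM1/2 replicate 3 (limma adjusted p = 0.0536). At P28 the groups overlapped. Controls had 2569, 3118 and 2746 and dM1/2 libraries 2275, 2875 and 2858, a log2 fold change of -0.08 (95% interval -0.43 to 0.27), or -0.09 without the library labelled P28 control 3. At P20 controls had 3608, 2678 and 2685 and dM1/2 libraries 2410.3, 2353 and 1574, all below the controls, but the log2 fold change of -0.51 was not called (limma adjusted p = 0.181). P60 controls had 1541, 2031 and 1111 and P60 dM1/2 libraries 1853, 1541 and 2299. Dkk3 lies on chromosome 7 (112116017 to 112159057, GRCm38).

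Seen over all members, all dM1/2 libraries were on one side of all controls for 2 of the 8 members tested at P20 (Frzb above, Dkk3 below), where 25.4% of genes tested showed this. They were for 4 of 9 at P24 (Dkk3 above and Wif1, Frzb and Sostdc1 below, 44.8% of genes), for 5 of 9 at P28 (the called members, 51.3% of genes) and for 2 of 8 at P60 (Sostdc1 and Dkk2 below, 8.87% of genes). The 5 at P28 include Dkk1, which passed the filter on low values only through the dM1/2 libraries, so 4 of the other 8 members is the count to read there. At P24 Dkk1 overlapped and passed the filter in the same way, so the count to read is 4 of the other 8 there too. These shares are near those of all genes at P20, P24 and P28.

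The summed level of the inhibitors and the share of each member in it are given as a description and were not tested. Summed over the 9 members, normalized reads per kb were 37783 ± 6583 in P24 controls and 21144 ± 2939.95 in P24 dM1/2, and 59561 ± 25806 in P28 controls and 25192 ± 1609 in P28 dM1/2 (SD, n = 3 each). The lowest control was above the highest dM1/2 library at both ages, also without the library labelled P28 control 3, where the sums of P28 controls 1 and 2 were 56434 and 35461. Wif1 made up 55.4% ± 10.3 of this sum in P24 controls and 78.5% ± 1.87 in P24 dM1/2, and 42.1% ± 8.69 and 76.6% ± 1.33 at P28 (SD, n = 3 each). Sostdc1 made up 28.7% ± 6.0005 in P24 controls and 6.14% ± 1.25 in P24 dM1/2, and 23.8% ± 4.33 and 5.63% ± 0.394 at P28. Sfrp1 made up 21.7% ± 2.73 of the sum in P28 controls and 5.91% ± 0.525 in P28 dM1/2. In P28 controls 1 and 2 taken alone, Wif1 made up 37.4% and 36.7%, Sostdc1 28.6% and 22.6%, and Sfrp1 20.4% and 24.8%. In telogen the sum was 7243 ± 730.5 in P20 controls and 8376 ± 1898 in P20 dM1/2, which overlapped, and 6399 ± 615 in P60 controls and 4718 ± 956 in P60 dM1/2, where the lowest control (5844) was above the highest dM1/2 library (5676) (SD, n = 3 each). Wif1 made up 27.1% ± 4.19 of the sum in P20 controls and 41.9% ± 8.89 in P20 dM1/2, and Dkk2 took a mean share of 21.6% ± 4.46 in P20 controls and 46.1% ± 8.07 in P60 controls (SD, n = 3 each), against 23.8% ± 15.3 in P60 dM1/2.

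**Figure D3:**
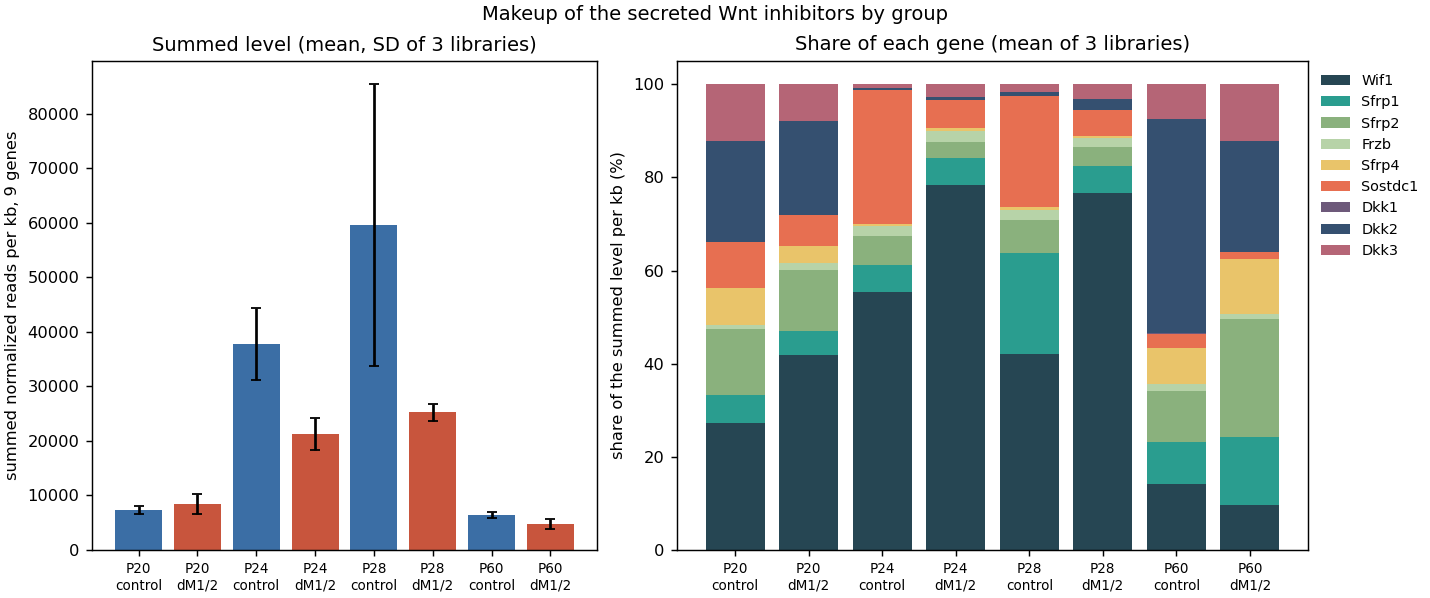
Left, the summed normalized reads per kb of the 9 members in each group (bars start at 0 and give the mean, error bars the SD of 3 libraries). Right, the mean share of each member in that sum in percent, where Wif1 takes 78.5% in P24 dM1/2 against 55.4% in P24 controls and Sostdc1 6.14% against 28.7%.

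Marker genes moved with some of these values, and their part in the results was not tested. Of the 18 DP markers, all of them tested, 3 were called higher and 10 lower in dM1/2 at P24, and 4 higher and 6 lower at P28. Of all genes tested, 26.6% were called at P24 and 35.5% at P28, or 40.9% without the library labelled P28 control 3. Their summed level was 300352 to 370189 normalized reads in P24 controls and 153922 to 197250 in P24 dM1/2, and 145190 to 387339 in P28 controls and 118868 to 132345 in P28 dM1/2. P28 control 2, which had the lowest Sostdc1 of the P28 controls, also had the lowest DP marker sum. At P20 the DP marker sum was 109367 to 137156 in controls and 146986 to 181087 in dM1/2, while Wif1 and Frzb had positive log2 fold changes, and 1 DP marker was called higher. Single genes weigh heavily in these sums. Igfbp3 had a mean of 82340 in P20 controls and 106534 in P20 dM1/2, and Vcan 168490 in P24 controls and 73467.5 in P24 dM1/2. At P60 the DP marker sum was 72840.5 to 143971 in controls and 44349 to 89888 in dM1/2, and no DP marker was called. The sum of 10 markers of other fibroblasts was 103304 to 181043 in P20 controls and 77868 to 102408 in P20 dM1/2, while Sfrp4 and Dkk3 had negative log2 fold changes, and none of the 10 was called. It was 122833 to 149963 in P60 controls and 118303 to 246111 in P60 dM1/2, again with none called. Of these 10, 1 was called higher and 2 lower at P24 and 2 lower at P28. Without the library labelled P28 control 3, where Sfrp4 was called lower, 7 of the 10 were called lower and 1 higher at P28, and of the 18 DP markers 6 were lower and 5 higher. The fibroblast sum was 70193, 40253 and 24373 in P24 controls 1, 2 and 3, and 73385, 124544 and 28407 in P28 controls 1, 2 and 3, the same order as Sfrp4 in these libraries. Sfrp1 did not follow that order at P28, where it was highest in the library labelled P28 control 3. The DP marker sum was 266213, 145190 and 387339 in P28 controls 1, 2 and 3, the order of Sfrp1, Sostdc1, Frzb and Wif1 there but not of the other members. In P24 controls 1, 2 and 3 it was 300352, 326169 and 370189, an order that none of Sfrp1, Sostdc1, Frzb and Wif1 had. Of the 9 to 11 keratinocyte markers tested, 2 were called lower at P24 and 1 higher at P28. Of the 7 dermal sheath markers, 2 were called lower at P24 and 1 at P28, and of 4 Schwann cell markers 1 was called lower at each age. Immune markers had 1 of 5 lower at P24, endothelial markers 1 of 6 higher and 1 lower at P24, muscle markers 1 higher at each age, and melanocyte markers none at either.

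**Figure D4:**
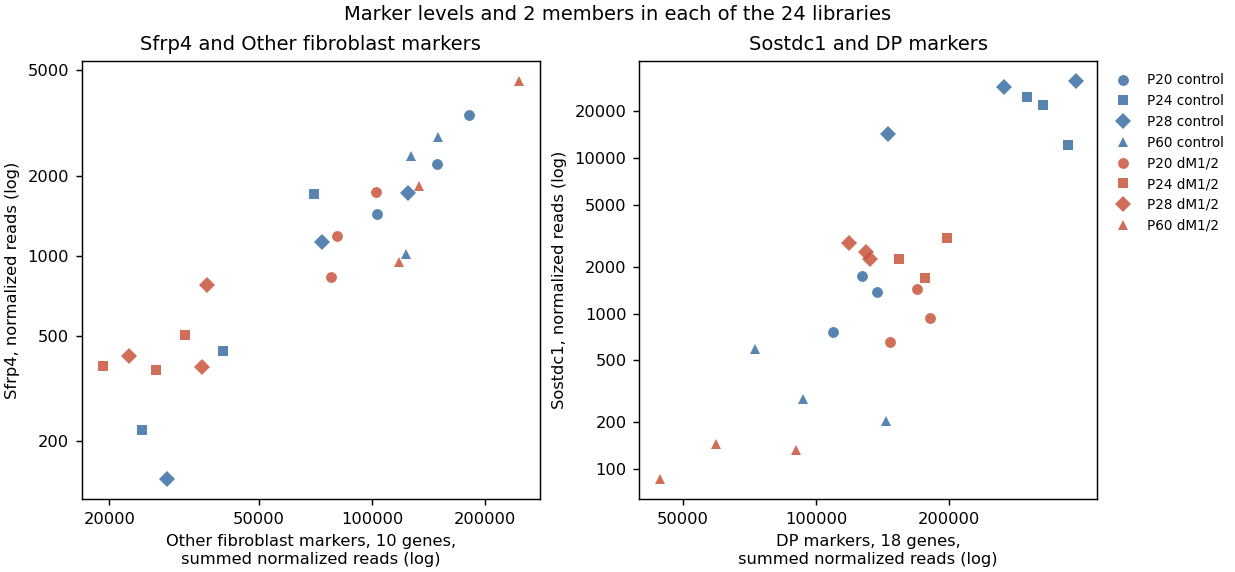
Each of the 24 libraries by the summed normalized reads of 10 markers of other fibroblasts and its Sfrp4 level (left), and by the sum of 18 DP markers and its Sostdc1 level (right), all axes log. Sfrp4 is low where the fibroblast sum is low, down to 144 in the library labelled P28 control 3, and the anagen controls lie apart from all other libraries in Sostdc1, from 12148 to 31311.

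Between P24 and P28 the members were followed within each genotype. In controls 1 of the 8 members tested was called, Dkk3, where 1.46% of all genes were. Its log2 fold change was 1.44 (limma adjusted p = 0.0309), and the call was lost in each of the 6 fits without 1 library, with adjusted p-values from 0.0589 to 0.107. Sfrp1 had 10004 ± 4287 normalized reads at P24 and 54647 ± 18757 at P28 (SD, n = 3 each), which was a log2 fold change of 2.50 (95% interval 1.48 to 3.52) short of the threshold (limma adjusted p = 0.0514). Without the library labelled P28 control 3 it was 2.24 (limma adjusted p = 0.0806). It passed on log2(normalized reads + 10) (limma adjusted p = 0.0491) and with DESeq2 (adjusted p = 1.28e-07). In dM1/2 1 of 9 members was called, Dkk2, where 2.67% of all genes were. Dkk2 rose there from 453 ± 75.7 to 2151 ± 741 normalized reads (SD, n = 3 each), which was a log2 fold change of 2.20 (limma adjusted p = 0.00538) that was called in all 11 alternatives. DESeq2 also called Dkk1 (adjusted p = 0.0469) and Dkk3 (adjusted p = 0.0136) in dM1/2, where it called 1127 of 14028 genes. Dkk2 also had a log2 fold change of 1.44 in controls, which was not called with limma (adjusted p = 0.109) but was with DESeq2 (adjusted p = 0.00704). Sfrp1 in dM1/2 had 5292 ± 1289 at P24 and 6489 ± 222 at P28 (SD, n = 3 each), which was a log2 fold change of 0.32 (95% interval -0.09 to 0.74). The P24 to P28 change differed between genotypes for none of the 9 members with limma or with edgeR, where limma called 0.707% of all genes, and 3 of 9 members had an unadjusted p under 0.05 in limma, as did 11.9% of all genes. Dkk1 was among these 3 and passed the filter on low values here only through the P28 dM1/2 libraries. For Sfrp1 this difference was -2.17 (95% interval -3.23 to -1.12, limma adjusted p = 0.0701), and it passed without P24 control 2 (limma adjusted p = 0.0473) or without P28 control 2 (limma adjusted p = 0.0465).

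Between the telogens of P20 and P60, both sampled from females, 5 of the 8 members tested changed in controls, where 12.6% of all genes did. Dkk2 (log2 fold change 0.92, limma adjusted p = 0.0325) and Frzb (0.85, limma adjusted p = 0.0484) were higher at P60. Sostdc1 (-1.91, adjusted p = 0.0144), Wif1 (-1.19, adjusted p = 0.0355) and Dkk3 (-0.97, adjusted p = 0.0204) were lower (limma). These calls rested on few libraries, and without P20 control 3 no member passed, with adjusted p-values of 0.0615 for Dkk3, 0.0649 for Sostdc1, 0.0929 for Dkk2, 0.124 for Wif1 and 0.125 for Frzb (limma). The number called was 4 without P20 control 1, 3 without P20 control 2, 1 without P60 control 2 and 2 without P60 control 3. Without P60 control 1 it was 5, with Sfrp2 (-1.14, limma adjusted p = 0.0286) in place of Wif1. Of all genes, 527 were called without P20 control 3 and 2796 without P20 control 1, with the other fits between. In dM1/2 2 of 8 members changed, where 6.32% of genes did: Wif1 fell by 3.09 on the log2 scale (limma adjusted p = 0.0107) and Sostdc1 fell by 3.01 (limma adjusted p = 0.00592). Wif1 thus went from 8765 ± 3590.2 normalized reads at P20 to 1064 ± 607 at P60 in dM1/2 (SD, n = 3 each). Sostdc1 was called in all 11 alternatives and Wif1 in 8 of 11, with adjusted p-values of 0.0541 without P20 dM1/2 replicate 1, 0.0564 without P20 dM1/2 replicate 3 and 0.0609 without P60 dM1/2 replicate 2. Frzb in dM1/2, with a log2 fold change of -1.40 (limma adjusted p = 0.104), was called with DESeq2 (adjusted p = 0.0464) and without P60 dM1/2 replicate 3 (limma adjusted p = 0.015).

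Whether the dM1/2 effect differed between anagen and telogen was tested over all 24 libraries as the mean effect at P24 and P28 minus that at P20 and P60. Of the 9 members 4 were called, all lower, where 30.2% of all genes were called: Sostdc1 with -2.23 on the log2 scale (95% interval -3.08 to -1.38, limma adjusted p = 0.000458), Sfrp2 with -2.12 (95% interval -3.19 to -1.06, limma adjusted p = 0.00384), Sfrp1 with -1.97 (95% interval -2.77 to -1.16, limma adjusted p = 0.000813) and Frzb with -1.10 (95% interval -1.88 to -0.32, limma adjusted p = 0.0309). The calls of Sostdc1, Sfrp2 and Sfrp1 held under all 26 alternatives. That of Frzb was lost without any one of 8 libraries, namely P20 control 2, P20 dM1/2 replicate 3, P24 control 2, P24 dM1/2 replicate 3, the library labelled P28 control 3, P28 dM1/2 replicate 1, P28 dM1/2 replicate 2 and P60 control 1, with adjusted p-values from 0.0518 to 0.0594. Dkk3, with 0.50, was called only without P60 control 3 (limma adjusted p = 0.036) and Dkk2, with 0.89, only without P60 dM1/2 replicate 3 (limma adjusted p = 0.0263), among the 26 alternatives of each. Dkk1, with 1.503, was called on log2(normalized reads + 10) (limma adjusted p = 0.0375). It passed the filter on low values in this comparison only through the P28 dM1/2 libraries, so that its call supports nothing here. Wif1, with -0.14 (95% interval -1.02 to 0.73), was not called (limma adjusted p = 0.838).

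Other genes of the Wnt pathway were called in both directions at the anagen ages, where 26.6% of all genes were called at P24 and 35.5% at P28. Of 10 further secreted inhibitors 6 were tested at each age, with 1 lower at P24 and 2 lower at P28. Notum, which removes a lipid from Wnt ligands, fell from 4370.4 to 2909 normalized reads at P24 (log2 fold change -0.58, limma adjusted p = 0.0285), and Apcdd1, a membrane-bound inhibitor, from 18284 to 8036 at P28 (-1.18, adjusted p = 0.0029). Draxin had -1.34 at P28. Of 11 Wnt ligands tested, 2 were higher and 3 lower at P24, and 4 higher and 3 lower at P28. Wnt6 rose from 103 ± 17.6 to 1551 ± 304 normalized reads at P28 (SD, n = 3 each; log2 fold change 3.90, limma adjusted p = 0.000161) and Wnt4 had 3.89, while Wnt5a, a ligand known for beta-catenin independent signalling, fell at both ages (-0.99 and -0.77). Wnt6 and Wnt4 were higher at P24 too, with 2.29 and 1.79, and Wnt10a at P28 with 3.04. Wnt9a fell at P24 (-0.85), Wnt5b at both ages (-0.51 and -1.62) and Wnt9b at P28 (-2.50).

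Of 18 receptors and co-receptors tested, 1 was higher and 2 lower at P24 and 3 higher and 4 lower at P28. Beside these counts and those that follow, 26.6% of all genes were called at P24 and 35.5% at P28. Fzd1, a receptor for Wnt ligands, fell by 2.04 on the log2 scale at P28, and Lrp6, the co-receptor bound by Dkk1 and Dkk2, fell by 0.76. Ryk fell by 0.53 at P28, and Ror1 and Fzd8 fell by 0.73 and 0.53 at P24. Fzd9 and Fzd10 were higher at P28, with 1.70 and 1.32. Lrp4, a receptor that binds Sostdc1, was higher at P24 (0.74) and P28 (0.99). A list of 8 genes tested held R-spondins, which strengthen Wnt signals, their Lgr receptors and Znrf3. Of these, Rspo2 fell at P24 (-1.54), and Rspo2, Rspo4 and Rspo3 fell at P28 (-2.67, -2.26 and -1.79), where 4 were lower and 1, the receptor Lgr6, was higher (3.31). Of 16 targets and feedback genes 3 were higher and 4 lower at P24, and 4 higher and 4 lower at P28, with Ccnd1 the largest rise (3.32 and 3.72) and Fgf7 the largest fall (-1.82 and -2.18). Tnfrsf19 and Tcf7 were higher and Fgf10 and Nkd2 lower at P24, while Nkd1 and Twist1 were higher and Fgf10 and Apcdd1, the latter also among the further inhibitors, lower at P28. Of 22 genes of the pathway inside the cell, 1 was higher and 4 lower at P24 and 3 higher and 5 lower at P28, with Tle2, Porcn and Pygo1 the largest falls at both ages. Tle1 was the gene higher at P24, and Tle3, Tle4 and Dvl3 those higher at P28. None of these lists had a called gene at P20 or P60 with limma. Median log2 fold changes of these 6 lists lay between -0.55 and 0.19 at P24 and between -0.58 and 0.19 at P28. Without the library labelled P28 control 3, counts higher and lower at P28 were 4 and 5 for ligands, 3 and 5 for receptors and 4 and 5 for targets, and those of the other 3 lists were as above.

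**Figure D5:**
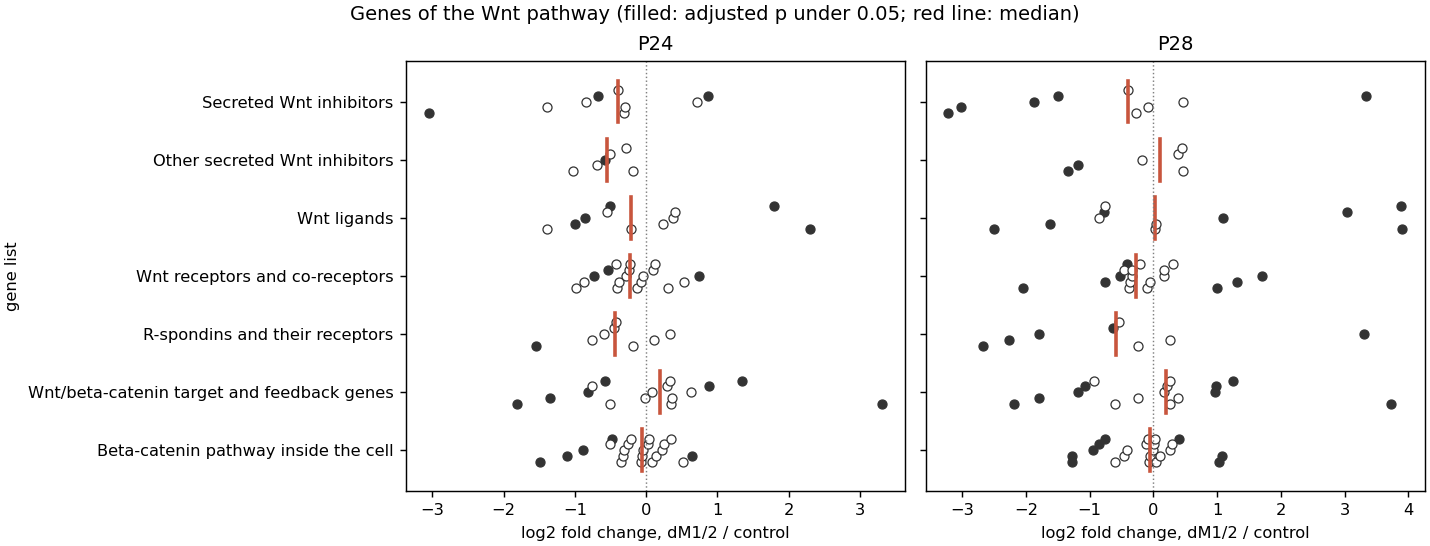
Log2 fold change of dM1/2 over control at P24 (left) and P28 (right) for each gene tested of 7 Wnt pathway lists, filled where the adjusted p of limma was under 0.05, with a red line at the median of each list. Filled dots lie on both sides of 0 in most lists, and Sostdc1 is the leftmost dot of the secreted Wnt inhibitors at both ages.

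The genes whose levels over the 24 libraries were most like those of each member were named by Pearson correlation on log2(normalized reads + 1). This is a description, and the libraries share age, sex and genotype. Sostdc1 was most like Chodl (r = 0.956), Corin (0.938) and Ndnf (0.931). Sfrp1 was most like Tmem176b (0.961), Pgd (0.955) and Scd1 (0.952), and Sfrp2 most like Rab38 (0.878), Islr (0.859) and Lrrc4c (0.854). For Frzb these were Dcc (0.976), Shisa9 (0.973) and Ptprz1 (0.971), and for Wif1 Sp7 (0.973), Gng2 (0.971) and Alx4 (0.971). Sfrp4 was most like Ptgis (0.974), Mfap5 (0.972) and Galnt16 (0.958). Among the Dickkopf genes, Dkk2 was most like Nrp2 (0.928), Rfwd2 (0.921) and Cbfa2t3 (0.920), and Dkk1 most like Sgol2a (0.840), Ube2c (0.835) and Dlgap5 (0.834). Dkk1 passed the filter on low values over the 24 libraries only through the P28 dM1/2 libraries, so that its likenesses support nothing here. Nudt4 (0.833) and Nol12 (0.824) were among the genes most like Dkk3. Between members the correlation was highest for Frzb and Wif1 (r = 0.931) and lowest for Frzb and Sfrp4 (r = -0.753) over the same 24 libraries.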

How the data were processed

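RNA from sorted DP cells of individual mice (3 control and 3 dM1/2 at P20, P24, P28 and P60) was measured in 24 libraries, grouped by the labels. The authors prepared directional libraries after ribosomal RNA had been depleted, and single reads were trimmed (Trimmomatic), aligned to mm10 by TopHat2 (version 2 per the labels) and counted per Ensembl gene (GRCm38.p4) with HTSeq. The strand setting and the DESeq2 version are not given in the sources used here. The signal that the authors deposited is a read count divided by DESeq2's size factor over all libraries, called normalized reads. All values gave whole reads within 0.1 of a read. The authors' own fold changes and p-values in these files were not used.

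Tests were two-sided and by limma 3.58.1 with its trend option, on log2(normalized reads + 1), for genes with a mean of at least 10, with Benjamini-Hochberg adjustment over all genes and a threshold of 0.05. The fits were also run on simulated P28 counts with the same spread for every gene. That setting held no library that differs from the rest of its group, so the run does not show how the tests behave with one. Alternatives were a pseudocount of 10, no filter, limma on TMM-scaled log2-CPM (prior count of 2), edgeR 4.0.16 with TMM or DESeq2's size factors and DESeq2 1.42.0 on the recovered reads, 1 fit over 24 libraries, a replicate block, and each library left out. The labels call replicates biological. Same-numbered libraries did not deviate together (a correlation over 0.1 in every pair was required and was not met at any age), so numbers were not treated as pairs. The members and gene lists were chosen with earlier results of these data known. Named genes are the members, up to 3 called rises and 3 called falls per list at P24 and P28, and the 3 genes most correlated with each member, without predicted genes. For Dkk3 1 of these is not reported here. Levels per kb used union exon lengths of GENCODE, available for 25431 genes.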

Additional observations from a re-analysis of the deposited data

Results flagged for a closer look

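The dM1/2 effect on 4 members differed between anagen (P24 and P28) and telogen (P20 and P60) by a test of the difference itself over 24 libraries (limma). The difference was -2.23 on the log2 scale for Sostdc1, -2.12 for Sfrp2, -1.97 for Sfrp1 and -1.10 for Frzb. Of all genes tested 30.2% were called in the same comparison, and the call of Frzb was lost without any one of 8 libraries. Anagen libraries came from males and were deeper, and telogen libraries came from females, so that stage, sex and depth cannot be told apart in this difference. The log2 fold change of Hdac1 was -2.01 at P24, -0.58 at P28, -0.72 at P20 and -0.25 at P60, and its part in this difference was not tested.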

How the results depend on the processing

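At P28 the same number of members, 5, was called under each alternative that kept all libraries, and 4 to 6 without 1 library. Dkk1 was in each of these counts, although in the main fit it passed the filter only through the dM1/2 libraries. Of all genes, 3713 to 5827 were called at P28 under the alternatives that kept all libraries, and 3043 to 5788 without 1 library. At P20 2 members were called with DESeq2 (Frzb and Wif1), where 668 of 13845 genes were. Without 1 library 0 to 2 members were called there, and 0 to 1530 genes. At P24 5 members were called with DESeq2 (with Sfrp1 and Sfrp2), where 4704 of 14021 genes were. Without 1 library 1 to 5 members were called there, and 2057 to 4012 genes. For the control change from P24 to P28, 2 members were called on log2(normalized reads + 10), 3 with DESeq2 and 0 without any 1 library. The same fits called 231 of 13966, 1494 of 13958 and 0 to 67 genes. For the same change in dM1/2, DESeq2 called 3 members, and 1127 of 14028 genes. Without 1 library 0 to 5 members were called between P20 and P60 in controls, 1 to 3 in dM1/2, and 0 to 1 for the difference of the P24 to P28 changes. Of all genes, these fits called 527 to 2796, 100 to 1772 and 8 to 167. At P60 no alternative called a member. With DESeq2's calls the cause was not tested.

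With the replicate number as a block, 3 members were called at P20 (Frzb, Wif1 and Sfrp4), 0 between P24 and P28 in controls, 2 between P20 and P60 in controls and 3 in dM1/2, against 0, 1, 5 and 2 without it. Of all genes, 439, 27, 923 and 795 were called with the block, in the same order, against 60, 204, 1746 and 892 without it. Correlations of same-numbered deviations were 0.0822 to 0.231 at P20, -0.401 to 0.0425 at P24, -0.229 to 0.0270 at P28 and 0.0238 to 0.344 at P60, so the numbers are not shown to pair the libraries. The block changed no call of the members at P24, P28 or P60.

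The sign of 9 values that were not called turned in fits without 1 library, with log2 fold changes from -0.17 to 0.27 for Dkk2, -0.12 to 0.094 for Sfrp1 and -0.14 to 0.35 for Sfrp2 at P20, from -1.05 to 0.42 for Sfrp4 at P24, from -0.14 to 0.033 for Dkk3, -1.48 to 0.30 for Sfrp4 and -0.68 to 0.22 for Wif1 at P28, and from -0.51 to 0.45 for Sfrp1 and -0.52 to 0.61 for Sfrp4 at P60. Depth limits Dkk1, which had 0 to 10 reads per library at P20 and P60.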
